A study of Ovis aries and Bos taurus with 10 samples.

Results

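The insulin-like growth factor (IGF) system was followed here through its ligands IGF1 and IGF2, the receptors IGF1R and IGF2R, and the binding proteins IGFBP2 to IGFBP7, in ovarian follicles of newborn lambs and in whole fetal ovaries. These 10 genes were taken by name, as every probe set to which the annotation of the Affymetrix bovine array gives one of their symbols. They hold 19 of the 24016 probe sets on the array beside the controls, and 10 of 9155 gene symbols. IGFBP2, IGFBP4, IGFBP5, IGFBP6 and IGFBP7 have 1 probe set each, whereas the other 5 genes have several.

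IGF1 and IGF2 are small secreted proteins that promote growth and survival of many cells. Both act through the tyrosine kinase receptor IGF1R, and IGF2R, which also carries lysosomal enzymes, takes IGF2 into the cell for degradation. The binding proteins hold the ligands outside the cell and either withhold them from IGF1R or present them to it. In the ovary the system is best known for acting with follicle-stimulating hormone on the granulosa cells of growing follicles.

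Oocytes and granulosa cells (GC), the cells that surround and nourish the oocyte, had been cut out of ovary sections of newborn lambs, less than a day old, by laser capture microdissection (LCM). There was 1 array for each compartment and stage, so that oocytes of primordial, primary and secondary follicles are called PDO, PMO and SECO, and GC of the same stages PDG, PMG and SECG. Each LCM array held RNA pooled from several animals, amplified in 2 rounds and labelled with the Arcturus turbo kit, which is protocol P3. The other 4 arrays held whole fetal ovaries: an ovine ovary at 132 days post coitum was labelled by P2 (the same amplification followed by Affymetrix labelling), by P3 and by P1 (the standard Affymetrix labelling with no such amplification), and a bovine ovary at 8 months post coitum by P1. All values are MAS 5.0 signals, linear fluorescence intensities that the authors had scaled to a trimmed mean of 100 on each array. Since labels give 1 array for each compartment and stage, p-values measure only the spread between these samples, and because every array is a bulk sample, fewer cells of a type and less RNA per cell cannot be told apart.

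The value table carries no present calls, so a probe set was called detected on an array when it lay in the brightest part of that array whose size the study gives for present calls. The lowest signal of that part, the detection limit, lay between 45.8 and 74.2 on the LCM arrays and between 28.9 and 44.7 on the fetal ovary arrays. The compartment labels were checked by marker genes. The 8 oocyte markers on the array summed to 7735 on PDO, 7920 on PMO and 2723 on SECO, against 3053 on PDG, 5628 on PMG and 3448 on SECG, and 7 or 8 of them were detected on each of the 6 arrays. The 11 GC markers summed to between 277 and 782 on the oocyte arrays and to between 787 and 2565 on the GC arrays. Of these markers 2, 4 and 2 were detected on PDO, PMO and SECO, against 3, 5 and 5 on PDG, PMG and SECG. FOXL2 and AMH, which define GC, were detected on none of the 6 arrays. FST, a GC marker that encodes the activin antagonist follistatin, gave 15.2, 111 and 51.4 on PDO, PMO and SECO, against 107, 409.5 and 776 on PDG, PMG and SECG. The GC markers GATA4 and INHBA, detected on each of the 6 arrays, overlapped between compartments. GATA4 gave 82.4, 101 and 229 on the oocyte arrays, against 125, 88.7 and 263 on the GC arrays. INHBA gave 64.1, 110 and 334 on the oocyte arrays, against 470, 244 and 253 on the GC arrays. The 8 stroma markers summed to 18384, 5793 and 18692 on PDO, PMO and SECO, against 54316, 33145 and 16911 on PDG, PMG and SECG. The oocyte marker sum was lower on SECO than on SECG and PMG, so that it does not set oocytes apart at the secondary stage. Single oocyte markers went both ways there. ZP2 gave 348 on SECO against 1043 on SECG, and MAEL 407 against 57.9. Markers of the other compartment and of stroma thus gave signals on arrays of both labels, to extents that differed between arrays, and their part in the results below was not tested.

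Detection was reached by 16 of the 19 on 1 or more of the 10 arrays. In follicles 10 of the 19 probe sets, for 8 genes, reached detection on an LCM array, beside 11642 of all 24016 probe sets. Detected on all 6 LCM arrays were 2 of these IGF probe sets, for IGFBP3 and IGFBP7. Another 6 were detected on fetal ovary arrays only, among them the single probe sets of IGFBP4 and IGFBP5. The number of the 10 genes detected was 5, 4 and 7 on PDO, PMO and SECO, against 5 on each of PDG, PMG and SECG, and it was 6 on ovine P2, 6 on ovine P3, 10 on ovine P1 and 9 on bovine P1. All 10 genes were thus detected in the ovine fetal ovary under standard labelling. Detection followed each array's own share of present calls, so that fewer probe sets of any kind counted as detected after amplification, 9286 on ovine P2 and 9084 on ovine P3, against 11975 on ovine P1, and 7055 to 8769 on the LCM arrays.

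IGF1 signals in follicles were low in both compartments. Probe set Bt.12750.2.S1_a_at gave 87.5, 60.4 and 137 on PDO, PMO and SECO, against 136, 82.8 and 96.0 on PDG, PMG and SECG. It was detected on 5 of the 6 arrays, all but PMO, and the compartments overlapped, with GC above oocytes at the primordial and primary stages and below them at the secondary stage. The fitted oocyte minus GC difference was -0.15 ± 0.34 on the log2 scale (SE, adjusted p = 0.892 by limma). Probe set Bt.12750.1.S1_at was detected in follicles on PDG only, at 59.4, where the other 5 arrays gave 11.9 to 49.9. The 2 further IGF1 probe sets, Bt.12750.2.A1_at and Bt.12750.2.S1_x_at, were not detected on any of the 10 arrays, with signals of at most 49.4. IGF1 is thus seen in follicles mostly through 1 probe set, at signals of at most 137.

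IGF2 was not read alike by its probe sets. In follicles only Bt.29867.1.A1_at was detected, at 53.9, 94.7 and 72.2 on PDO, PMO and SECO, against 48.7, 79.9 and 29.6 on PDG, PMG and SECG, the last below its limit of 49.8. The oocyte array was the higher at each stage, but the compartments overlapped and the difference of 0.40 ± 0.32 was not past the test (SE, adjusted p = 0.663 by limma). This probe set was not detected on any fetal ovary array, where it gave 5.50 to 14.3. Probe set Bt.23176.2.S1_a_at did the opposite. It gave 17.9 to 55.5 on the 6 LCM arrays, detected on none, and was detected on all 4 fetal ovary arrays, at 2183 on ovine P1 and 1808 on bovine P1. On ovine P2 it gave only 74.6. On ovine P3, labelled as the LCM arrays were, it gave 64.6, little above the highest follicle signal of 55.5. Bt.7676.3.S1_at was detected under P1 labelling only, and Bt.29867.1.S1_at, with signals of at most 16.1, on no array. The direction of IGF2 between follicles and fetal ovary thus turns with the probe set, and no IGF2 level in follicles is taken from them. In the RefSeq annotation of the sheep genome IGF2 lies next to the insulin gene INS.

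The signalling receptor IGF1R was at or under the detection limit in nearly all follicle samples. Its probe set Bt.12759.1.A1_at gave 4.18, 26.9 and 96.0 on PDO, PMO and SECO, against 44.1, 61.6 and 36.9 on PDG, PMG and SECG, and was detected on SECO only. The oocyte minus GC difference was -0.39 ± 0.48 (SE, adjusted p = 0.780 by limma), with a 95% interval of -1.52 to 0.73. The other IGF1R probe set, Bt.12759.1.S1_at, was detected in no follicle sample, at 2.32 to 49.8, and gave 69.5 on ovine P3 and 97.6 on ovine P1. Bt.12759.1.A1_at, by contrast, was detected on no fetal ovary array, at 11.5 to 19.6. The IGF1R probe sets were thus not read alike, and what each targets could not be checked here. All fitted IGF1R differences rest on Bt.12759.1.A1_at, and no IGF1R level in follicles is taken from them. SECO was also the array with the highest signal of the beta-globin gene HBB, a red blood cell marker, at 3838, against at most 398 on the other LCM arrays, while the red cell markers HBA and ALAS2 were detected on no LCM array. Whether red cells bear on the SECO signal of IGF1R was not tested.

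IGF2R, the clearance receptor, was detected on 5 of 6 LCM arrays by Bt.4977.1.S2_at. It gave 156, 97.3 and 400.3 on PDO, PMO and SECO, against 291, 70.0 and 397 on PDG, PMG and SECG. In both compartments the primary stage was the lowest and the secondary stage the highest. The compartments differed by -0.14 ± 0.35, oocyte minus GC (SE, adjusted p = 0.904 by limma). The primary minus primordial difference was -1.19 ± 0.43 and the secondary minus primordial difference 0.84 ± 0.43, neither past limma's test (adjusted p = 0.740 and 0.516). The other IGF2R probe set, Bt.4977.1.S1_at, was detected on no LCM array, at 3.70 to 51.9.

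IGFBP2 was detected in follicles on SECG only. It gave 5.50, 4.01 and 56.9 on PDO, PMO and SECO, against 13.4, 43.7 and 85.8 on PDG, PMG and SECG. The GC array was above the oocyte array at each stage, and within each compartment the secondary stage was highest, with overlap between compartments. The oocyte minus GC difference was -0.75 ± 0.34 (SE, adjusted p = 0.463 by limma) and the secondary minus primordial difference 1.63 ± 0.42 (SE, adjusted p = 0.270). Of these 6 signals 5 were under the detection limits. IGFBP4, which restrains IGF action in follicles until it is cleaved by the protease PAPPA, gave 4.26, 2.46 and 37.8 on PDO, PMO and SECO, against 12.9, 4.16 and 22.0 on PDG, PMG and SECG. IGFBP5, a binding protein that attaches to extracellular matrix, gave 2.30, 3.42 and 3.87 on the oocyte arrays, against 1.66, 2.75 and 5.52 on the GC arrays. IGFBP4 and IGFBP5 were therefore not detected in any follicle sample, which at these limits does not show that they were absent. The study, with its own present calls and annotation, names IGF2 and IGFBP5 in a functional network of its oocyte-specific genes. By the detection rule used here IGF2 was detected in both compartments and IGFBP5 in neither.

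IGFBP3, the main carrier of IGFs in blood, was detected on all 6 LCM arrays by Bt.422.1.S2_at. It gave 1048, 282 and 613 on PDO, PMO and SECO, against 2941, 448 and 343 on PDG, PMG and SECG. The primordial stage was the highest in each compartment. The PDG signal was 2.81 times that of PDO, 6.56 times that of PMG and 8.59 times that of SECG. At the secondary stage the oocyte array was above the GC array instead, so that the compartments overlapped, and the oocyte minus GC difference was -0.43 ± 0.46 (SE, adjusted p = 0.742 by limma).

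The stage differences of IGFBP3 were -2.24 ± 0.56 for primary minus primordial and -1.89 ± 0.56 for secondary minus primordial, with adjusted p of 0.740 and 0.317 by limma, neither past the test. The second IGFBP3 probe set, Bt.422.1.S1_at, gave 107, 78.5 and 80.3 on PDO, PMO and SECO, against 114, 71.5 and 46.2 on PDG, PMG and SECG. It too had its highest signal of each compartment at the primordial stage, over a narrower range, and was detected on 4 of the 6 arrays. PDG also stood apart in other ways. Its stroma markers summed to 54316. Its 6 endothelial markers summed to 2610, against 364 to 1298 on the other LCM arrays, although VWF and KDR, which define endothelium, were detected on no LCM array. The endothelial adhesion protein PECAM1 gave 322, 82.8 and 202 on PDO, PMO and SECO, against 888, 231 and 91.4 on PDG, PMG and SECG. Whether captured stroma or vessel accounts for part of the IGFBP3 signal of PDG was not tested.

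IGFBP6, which prefers IGF2 to IGF1, was detected on SECO and PMG only. It gave 22.2, 36.2 and 118 on PDO, PMO and SECO, against 13.3, 78.1 and 48.1 on PDG, PMG and SECG. The primordial stage was lowest in both compartments, below its detection limits. The oocyte minus GC difference was 0.19 ± 0.41 (SE, adjusted p = 0.889 by limma), and the secondary minus primordial difference was 1.37 ± 0.50 (SE, adjusted p = 0.375).

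IGFBP7, a secreted protein of matrix and vessels that binds IGFs weakly, was well above the detection limit on every array. It gave 6605, 8448 and 10420.1 on PDO, PMO and SECO, against 14011, 11139 and 11151 on PDG, PMG and SECG. All 3 oocyte signals lay below all 3 GC signals, with means of 8491 ± 1908 in oocytes and 12100.4 ± 1655 in GC (SD, n = 3 arrays each). The gap was 1.08 on the log2 scale at the primordial, 0.40 at the primary and 0.10 at the secondary stage, each with GC higher. The fitted oocyte minus GC difference of -0.53 ± 0.33 was not past limma's test (SE, adjusted p = 0.570), and its 95% interval ran from -1.31 to 0.25.

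**Figure D1:**
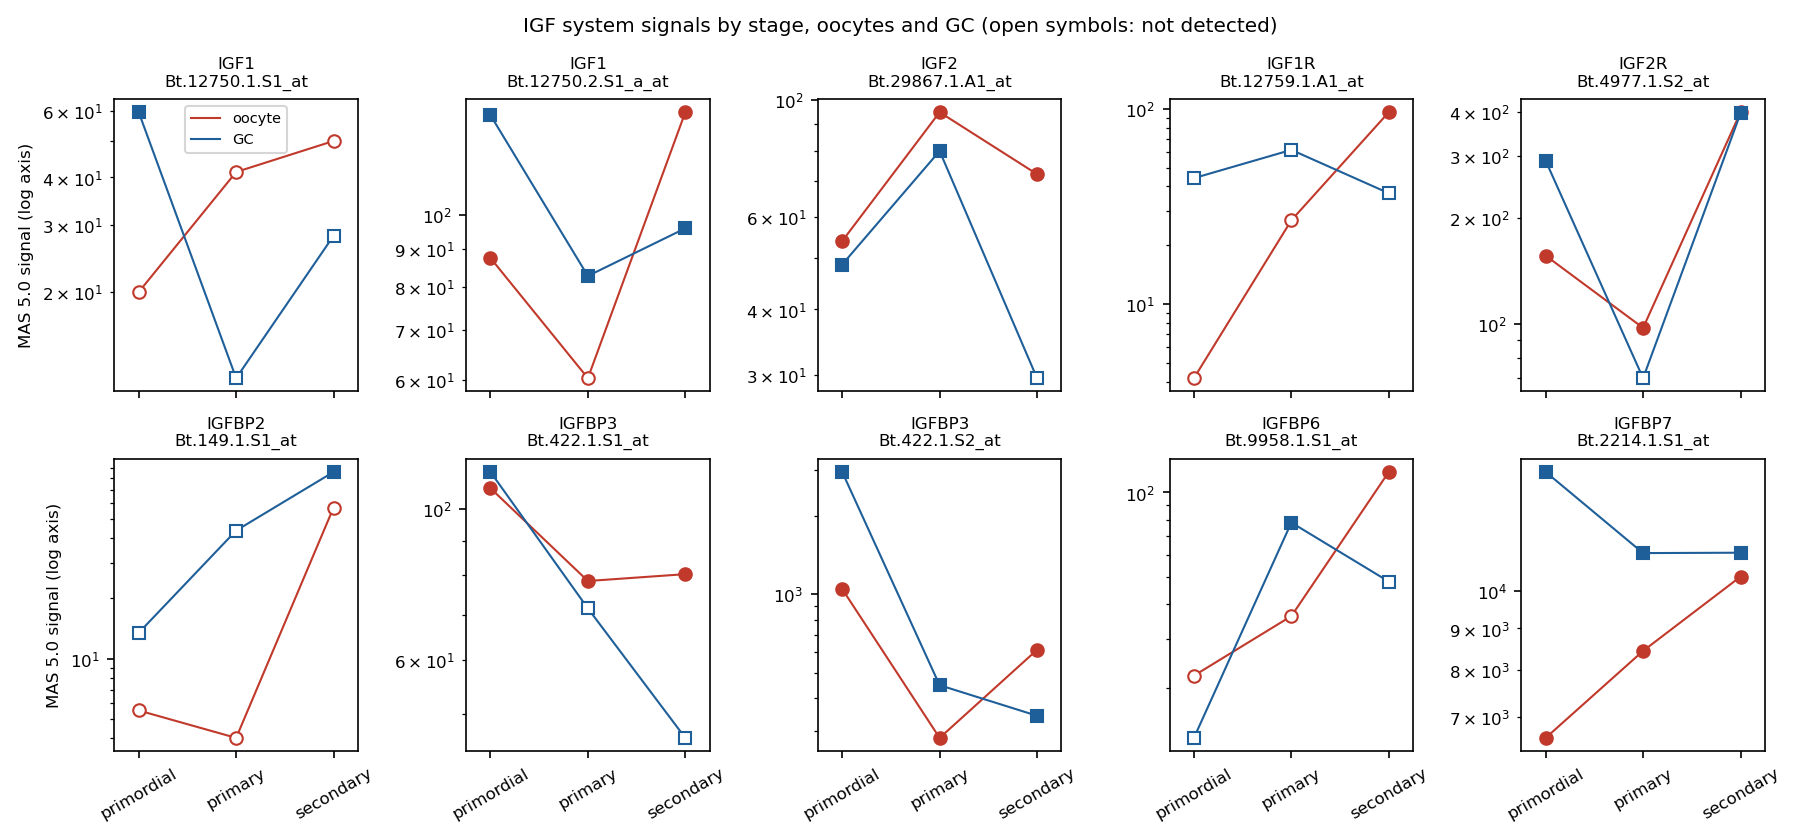
MAS 5.0 signals (log axis, a scale of its own in each panel) of the 10 IGF probe sets that reached detection in follicles, by stage, for oocytes (red circles) and GC (blue squares), 1 array per point and open symbols below the detection limit. IGFBP7 shows the oocyte points below the GC points at each stage, and Bt.422.1.S2_at of IGFBP3 is highest at the primordial stage, at 2941 on PDG.

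Across the 10 probe sets tested, 0 passed limma's test between oocytes and GC and 0 had an unadjusted p under 0.05. Among all 11642 probe sets 0.00% passed and 11.1% had an unadjusted p under 0.05. Without a test, 1 of the 10, IGFBP7, had all its oocyte signals below all its GC signals, as 7.71% of all probe sets did, and 0 of the 10 had them all above, against 7.28%. By stage, 0 of the 10 passed for primary minus primordial and 2, IGF2R and IGFBP3, had an unadjusted p under 0.05, against 0.00% and 6.55% of all probe sets. For secondary minus primordial 0 passed and 3, IGFBP2, IGFBP3 and IGFBP6, had an unadjusted p under 0.05, against 0.00% and 11.4%. The 95% intervals of the compartment difference reached from -1.55 for IGFBP2 to 1.16 for IGF1, so that differences of 2-fold were within them for 7 of the 10 probe sets. Leaving out the primordial stage turned the sign of the compartment difference for IGF1, IGF1R, IGF2R and IGFBP3, and leaving out the secondary stage that for IGFBP6. The difference of IGFBP7 was -0.25 without the primordial stage, that of IGFBP2 -0.43 without the primary stage and that of IGF2 0.15 without the secondary stage. With 3 arrays on a side and the constant of 20 added before taking log2, which understates differences of low signals, these data do not show the compartments to be alike.

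**Figure D2:**
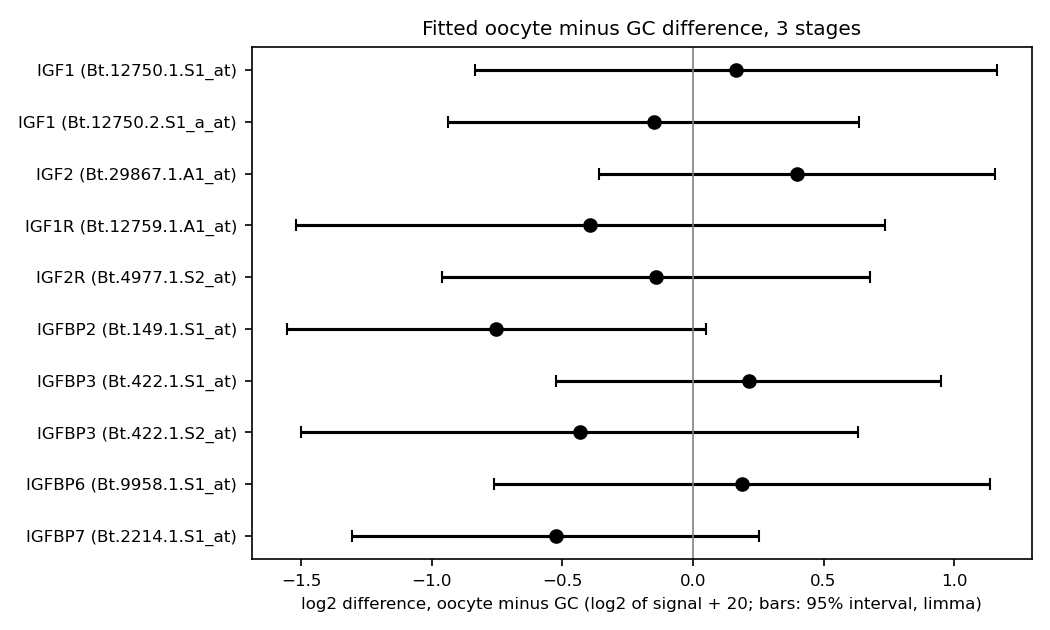
Fitted oocyte minus GC differences (horizontal axis, log2 of signal + 20) of the 10 probe sets tested, with 95% intervals of limma's model over the 6 LCM arrays. The 10 intervals all cross 0, and IGFBP2 at -0.75 and IGFBP7 at -0.53 lie farthest to the side of GC.

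The genes around the IGF system were described by 6 lists with 91 genes, of which 56 were on the array and 42 were tested. These were 3 ligand partners and proteases, 2 IGFBP-related proteins, 6 insulin receptors and adaptors, 16 genes of PI3K, AKT, TOR and FOXO, 9 of RAS and MAP kinase, and 6 regulators of IGF2. None of the 42 passed limma's test between compartments (0 of 42), 3 had an unadjusted p under 0.05, and 5 had all oocyte signals above and 2 all below those of GC. Of all 6293 genes tested, each by its brightest probe set, 10.7% had an unadjusted p under 0.05, 8.04% lay all above and 7.15% all below. Their median oocyte minus GC difference was -0.02, against 0.05 over all genes tested. IGF2BP3, which binds IGF2 mRNA, gave 419, 417 and 372 on PDO, PMO and SECO, against 168, 168 and 157 on PDG, PMG and SECG. The oocyte signals of IGF2BP3 varied little and did not overlap those of GC, and the difference was 1.20 ± 0.30 (SE, adjusted p = 0.406 by limma). RPS6KB1, a ribosomal S6 kinase downstream of IGF1R and TOR, gave 146, 108 and 218 on the oocyte arrays, against 85.4, 36.5 and 37.5 on the GC arrays. It too did not overlap, with a difference of 1.29 ± 0.36 (SE, adjusted p = 0.406 by limma), and PMG and SECG were under their limits. The third with an unadjusted p under 0.05 was the kinase AKT1, named after its values were seen, which ran the other way. It gave 32.8, 13.8 and 4.11 on the oocyte arrays, all under the limits, against 95.9, 30.7 and 149 on the GC arrays (difference -1.51 ± 0.46, adjusted p = 0.406 by limma). The PMG signal was also under its limit, of 72.1, so that AKT1 was detected on 2 of the 6 arrays. Unlike IGF2BP3 and RPS6KB1, it overlapped between compartments.

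Among adaptors that link IGF1R to the cell interior, SHC1 gave 6490.2, 7188 and 7207 on PDO, PMO and SECO, against 9275, 10282 and 10982 on PDG, PMG and SECG. GRB2 gave 145, 96.0 and 162 on the oocyte arrays, against 78.8, 89.2 and 48.4 on the GC arrays. SHC1 was thus lower and GRB2 higher in oocytes with no overlap, neither past limma's test (adjusted p = 0.526 and 0.481). Of the RAS and MAP kinase genes, NRAS alone did not overlap, at 83.9, 116 and 93.2 on the oocyte arrays, against 129, 119 and 221 on the GC arrays (adjusted p = 0.561 by limma). M6PR, the smaller of the mannose 6-phosphate receptors, to which IGF2R also belongs, gave 107, 167 and 128 on PDO, PMO and SECO, against 191, 155 and 135 on PDG, PMG and SECG, with overlap. MEG3, an imprinted noncoding RNA, gave 37.5, 9.98 and 68.0 on the oocyte arrays, against 66.6, 87.7 and 11.4 on the GC arrays, and 684 to 820 on the 4 fetal ovary arrays.

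The IGFBP-related matrix proteins CCN2 and CCN1 and the IGFBP protease HTRA1 had in common a highest LCM signal on PDG. CCN2 gave 958, 529 and 1121 on PDO, PMO and SECO, against 6047, 893 and 1156 on PDG, PMG and SECG (difference -1.14 ± 0.50, adjusted p = 0.456 by limma). HTRA1 gave 178, 130.1 and 149 on the oocyte arrays, against 536, 115 and 153 on the GC arrays. Among the LCM arrays PDG thus had the highest signals of IGFBP3, CCN2 and HTRA1, and the highest sums of stroma and endothelial markers. It also had the most probe sets detected, 8769. Other genes of these lists peaked elsewhere. ADAM12, listed with HTRA1, gave 112 on PDO, against 109 on PDG. The stroma marker TCF21 gave 556 on SECO, against 189 on PDG, and the stroma marker PDGFRA 92.55 on PMG, against 48.0 on PDG. The share of all genes that were highest on PDG is not given here.

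Ovine fetal ovary RNA labelled in 3 ways shows how the same genes are read after 2 rounds of amplification. With 1 array for each protocol there is no test, and P2 and P3 are both set against the same P1 array. Of the 14 IGF probe sets that reached detection on either array of the pair, 9 were at least 2-fold lower on P2 than on P1 and 0 at least 2-fold higher, against 28.5% lower and 17.4% higher among all 12707 probe sets. On P3, 9 of 14 were at least 2-fold lower and 2 at least 2-fold higher than on P1, against 32.4% and 18.3% of 12755. With lower signals set to the detection limit, a setting chosen after the data were seen, the 9 lower on P3 became 8, without IGF1 Bt.12750.2.S1_a_at, against 19.9% of all probe sets. Probe sets that were detected on P1 alone, 6 of 14 in the first pair and 7 in the second, could only be lower or near the limit. Of the 8 detected on both P2 and P1, 4 were at least 2-fold lower and 0 higher, against 13.3% and 18.8% of the 8554 probe sets detected on both. Of the 7 detected on both P3 and P1, 3 were lower and 2 higher, against 16.6% and 20.3% of 8304.

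IGF2 was the ligand with the largest gap. Its probe set Bt.23176.2.S1_a_at gave 74.6 on P2 and 64.6 on P3, against 2183 on P1, which is 29.3-fold and 33.8-fold lower. The weaker IGF2 probe set Bt.7676.3.S1_at gave 22.8 on P2 and 14.2 on P3, both below the limit, against 179.9 on P1. IGF1 Bt.12750.2.S1_a_at gave 71.9 on P2 and 24.7 on P3, where the limit was 42.3, against 78.4 on P1, so that its difference between P3 and P1 is at least 1.85-fold. IGF1 Bt.12750.1.S1_at stayed between 30.9 and 39.2 on all 3 arrays, under the limits of P2 and P3 and above that of P1. Here and below, a gap to an array where the probe set was not detected was counted from that array's detection limit and is given as at least so many fold.

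The receptors differed by probe set. IGF2R Bt.4977.1.S2_at gave 1508 on P2 and 1341 on P3, against 995 on P1, and was higher with amplification by 1.51-fold and 1.35-fold, short of 2-fold. Bt.4977.1.S1_at of the same gene gave 52.0 on P2 and 23.4 on P3, against 179 on P1, which is 3.44-fold lower on P2 and at least 4.23-fold lower on P3. IGF1R Bt.12759.1.S1_at gave 34.8 on P2, below the limit, and 69.5 on P3, against 97.6 on P1. The 2 IGF2R probe sets thus lay on opposite sides of their P1 signals.

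Of the binding proteins, IGFBP2, IGFBP4 and IGFBP5 were detected on P1 and not on P2 or P3, so that their gaps are lower bounds without an order. IGFBP2 gave 24.3 on P2 and 31.7 on P3, both below the limit, against 1468 on P1, which is at least 32.8-fold and at least 34.7-fold lower. IGFBP4 gave 3.60 on P2 and 32.1 on P3, against 352 on P1, at least 7.87-fold and at least 8.32-fold lower. IGFBP5 gave 22.3 on P2 and 40.6 on P3, against 196 on P1, at least 4.37-fold and at least 4.62-fold lower. All 3 genes were thus well above the limit of 32.1 under standard labelling.

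IGFBP6 was detected under all 3 protocols, at 393 on P2 and 376 on P3, against 1942 on P1, 4.94-fold and 5.17-fold lower. IGFBP3 was split by probe set as IGF2R was. Bt.422.1.S1_at gave 414 on P2 and 252 on P3, against 1273 on P1, 3.08-fold and 5.04-fold lower, whereas Bt.422.1.S2_at gave 2413 on P2 and 5416 on P3, against 1502 on P1, 1.61-fold and 3.61-fold higher. IGFBP7 gave 9297 on P2 and 14346 on P3, against 6748 on P1, 1.38-fold and 2.13-fold higher. All LCM samples were labelled by P3. IGF2 Bt.23176.2.S1_a_at, IGFBP2, IGFBP4 and IGFBP5, low in follicles, were thus also at least 4.62-fold lower on P3 than on P1 in the fetal ovary. How much of a low follicle signal comes from the protocol was not tested.

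**Figure D3:**
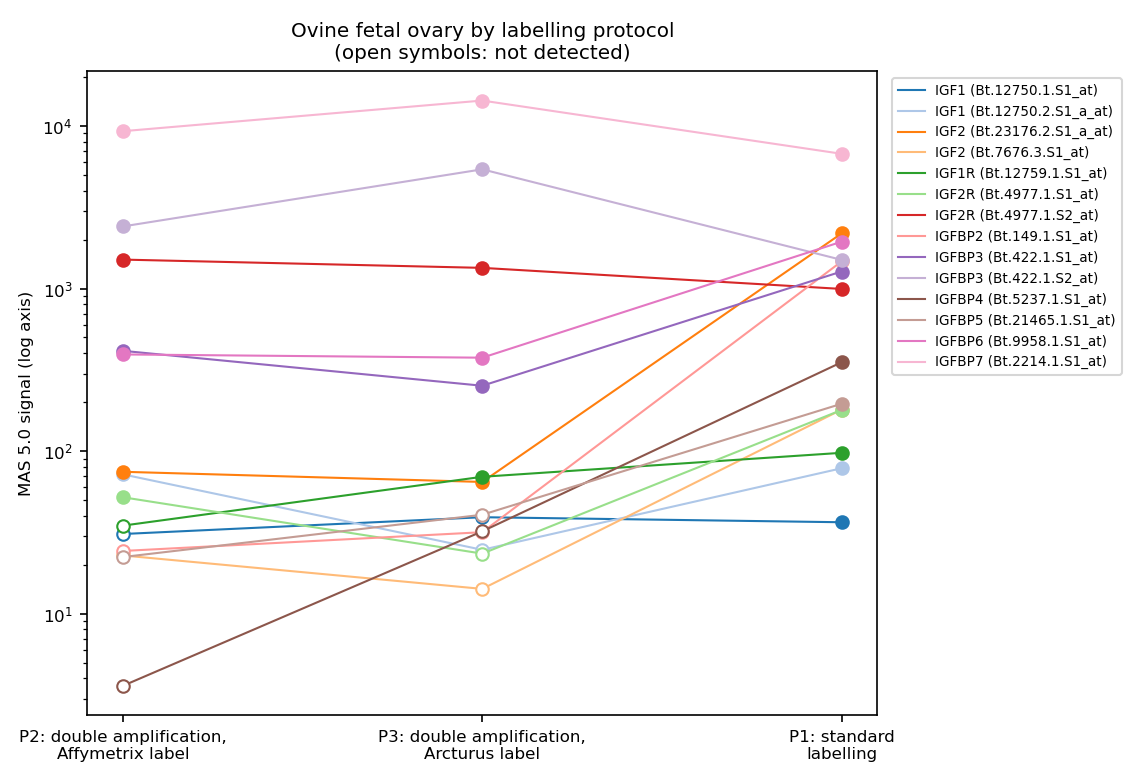
MAS 5.0 signals (log axis) of the 14 IGF probe sets that reached detection in the ovine fetal ovary labelled by P2, P3 and P1, 1 array each, with lines joining a probe set and open symbols below the detection limit. The lines of IGF2 and IGFBP2 climb steeply to P1, at 2183 and 1468, while those of IGFBP7, IGFBP3 Bt.422.1.S2_at and IGF2R Bt.4977.1.S2_at are higher on P2 and P3.

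Follicle samples and the ovine fetal ovary of the same labelling were set side by side, although they differ in age and in tissue and the ovary has 1 array. Of 12 probe sets of the IGF genes detected on at least 1 of these 7 arrays, 7 gave lower signals on all 6 LCM arrays than on the ovary and 2 gave higher ones, against 18.1% lower and 19.5% higher among 12134 probe sets. IGF2R Bt.4977.1.S2_at gave 70.0 to 400.3 in follicles, against 1341 in the ovary, and IGFBP6 gave 13.3 to 118, against 376. IGFBP3 Bt.422.1.S2_at gave 282 to 2941 in follicles, against 5416 in the ovary. For IGFBP7 the gap was small, with 6605 to 14011 in follicles, against 14346 in the ovary. The others of the 7 were IGF2 Bt.23176.2.S1_a_at, IGF1R Bt.12759.1.S1_at and IGFBP3 Bt.422.1.S1_at. Of these, the IGF2 and IGF1R probe sets were detected on no LCM array and entered the count through the ovary alone. Higher on all 6 LCM arrays were IGF1 Bt.12750.2.S1_a_at, at 60.4 to 137 in follicles, against 24.7 in the ovary, and IGF2 Bt.29867.1.A1_at, at 29.6 to 94.7, against 8.60, both with ovary signals below the limit of 42.3. These 2 entered through the LCM arrays alone. The filter thus in part set which way a probe set was counted, here and among all 12134. No count was made among probe sets detected on both sides.

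Ovine and bovine fetal ovaries under P1 labelling were set side by side, with 1 array for each species, different ages and no test. Of 14 IGF probe sets detected in either species, 2 were at least 2-fold higher and 2 at least 2-fold lower on the ovine array, against 17.7% and 27.2% of 14838. IGFBP2 gave 1468 on the ovine and 87.6 on the bovine array, 16.8-fold higher. IGF1R Bt.12759.1.S1_at gave 97.6 on the ovine array and 1.80, below the limit of 28.9, on the bovine array, at least 3.38-fold higher. IGF2 Bt.7676.3.S1_at went the other way with 179.9 on the ovine and 1776 on the bovine array, 9.87-fold lower, while Bt.23176.2.S1_a_at of the same gene gave 2183 and 1808 on the ovine and bovine arrays. IGFBP4 gave 352 on the ovine and 948 on the bovine array, 2.69-fold lower.

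For the remaining 10 probe sets the arrays of both species lay within 2-fold. IGFBP6 gave 1942 on the ovine and 1989 on the bovine array, and IGFBP5 gave 196 and 162 in the same order. IGFBP7 gave 6748 on the ovine and 5069 on the bovine array. IGFBP3 gave 1273 and 2479 with Bt.422.1.S1_at and 1502 and 1311 with Bt.422.1.S2_at, the ovine value named before the bovine one. Species, age and the fit of bovine probes to sheep transcripts cannot be told apart here.

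**Figure D4:**
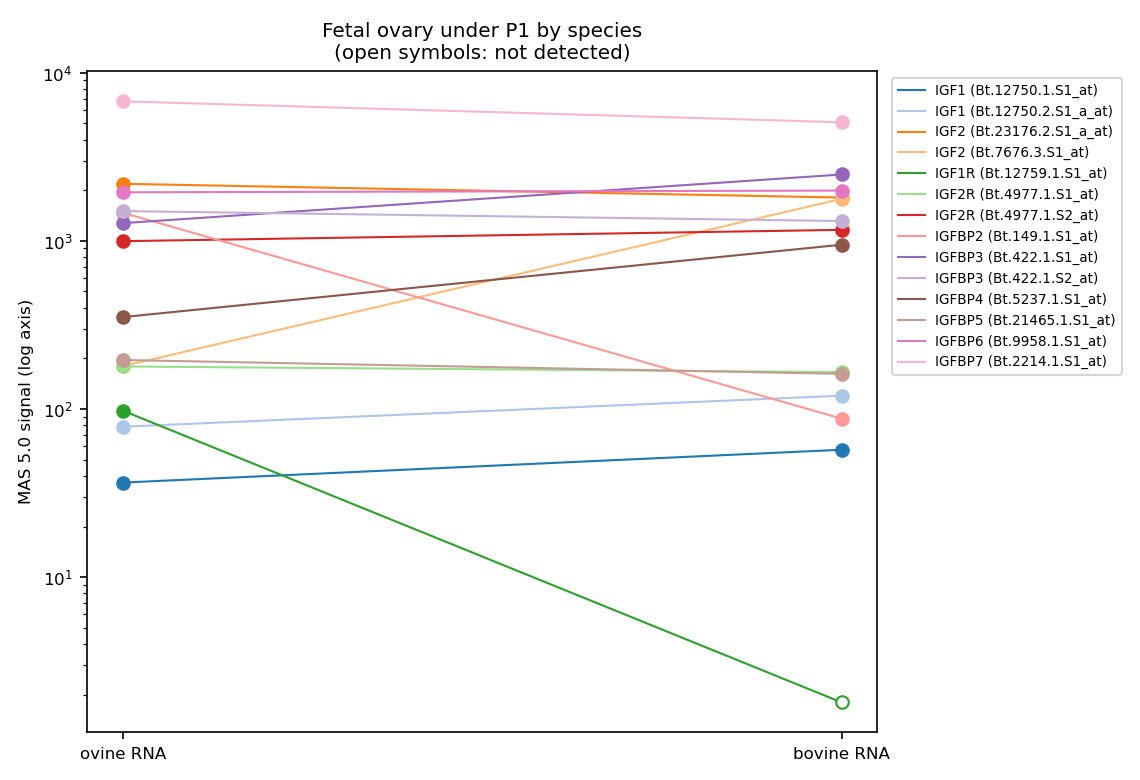
MAS 5.0 signals (log axis) under P1 labelling of the 14 IGF probe sets detected in the ovine (left) or bovine (right) fetal ovary, 1 array each, with open symbols below the detection limit. IGFBP2, at 1468 on the ovine and 87.6 on the bovine array, and IGF1R, at 97.6 and 1.80, slope down to the right, IGF2 Bt.7676.3.S1_at slopes up to 1776 on the bovine array, and most other lines are close to level.

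IGFBP3 and IGFBP7, the genes detected on all 6 LCM arrays, were set against 3184 genes detected likewise, over all 10 arrays. The genes whose log2 signals followed IGFBP3 Bt.422.1.S2_at most closely were COL3A1, a fibrillar collagen and one of the stroma markers, with r = 0.865, FBLN5, an elastic fibre protein, with r = 0.862, and MYO9B, an unconventional myosin, with r = 0.862. COL3A1 gave 4765, 1152 and 4883 on PDO, PMO and SECO, against 22597, 7585 and 3346 on PDG, PMG and SECG, the highest LCM signal being that of PDG as for IGFBP3. Those closest to IGFBP7 were BEND5 with r = 0.941, FKBP11 with r = 0.930 and RANBP10 with r = 0.925. BEND5 gave 245, 273 and 627 on PDO, PMO and SECO, against 836, 380 and 612 on PDG, PMG and SECG, and 350.4 on P2, 1143 on P3, 76.1 on ovine P1 and 48.5 on bovine P1. These correlations join 2 species, 3 labelling protocols and different tissues, so shared labelling enters them, and they are descriptions without a test. They were picked as the highest among 3184 genes over only 10 arrays, a choice that by itself favours high r. COL3A1 is also part of the stroma sum, so its likeness to IGFBP3 is not separate from that sum.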

How the data were processed

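For each of the 10 arrays the authors deposited linear signal intensities from MAS 5.0 in GCOS, brought to a trimmed mean of 100 per array and not normalized further. The version of GCOS was not given in the sources used here. The 112 controls were left out, and 0 value columns belonged to no sample. Gene symbols came from the platform annotation, which gives 1 symbol for 13292 probe sets, several for 86 and none for 10638.

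For oocytes against GC, and for stages, limma 3.58.1 (R 4.3.3) was fitted to log2 of signal + 20 with stage and compartment as terms. The fit ran over the 6 LCM arrays and 11642 probe sets, those that reached detection on any of them, with 2 residual and 5.43 prior degrees of freedom. P-values are two-sided and adjusted by Benjamini-Hochberg over all 11642, at a threshold of 0.05. The 3 stages served as replicates of a compartment and the 2 compartments as replicates of a stage. The fit was tested on simulated data drawn from the fitted model itself with normal noise. That checks the computation and cannot check the use of stages as replicates. Labelling protocols and species had 1 array each and were compared by ratios at 2-fold. Each gene of the lists was represented by its brightest probe set on the LCM arrays.

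The 10 genes, the lists and the tests were chosen with earlier results of these data known. All probe sets of the 10 genes are reported. From each pathway list the genes eligible to be named were the 2 largest differences in each direction among genes detected on at least 3 LCM arrays, and some of these are given. For genes detected on all 6 LCM arrays the 3 most correlated genes are named. Marker genes named singly were chosen after their values were seen. Of the 91 list genes 35 are not analysed here for want of a matching symbol.

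Alternatives for the fit were quantile normalization, another constant (1 or 50) or a floor at 20, dropping the detection filter or asking for 3 arrays, an intensity trend in the variance, no stage term, 1 stage left out, and averaged probe sets for a gene. Those for ratios were folds of 1.5 and 3, an added constant before ratios, and detection by a signal of 50 or 100 or by the brightest 30%. Setting lower signals to the detection limit was added after the data were seen. The number of arrays limits the precision. Figures were drawn with matplotlib 3.10.9 in Python 3.11.15.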

Additional observations from a re-analysis of the deposited data

Results flagged for a closer look

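The secondary minus primordial difference of IGF1 had opposite signs in the compartments, at 0.55 in oocytes and -0.43 in GC on the log2 scale, 0.98 apart. That of IGFBP7 did too, at 0.66 in oocytes and -0.33 in GC, 0.985 apart. These values stood out because the oocyte and GC arrays pointed in opposite directions and all 4 signals of the brightest probe set were detected. Opposite signs with undetected signals among the 4 were also found for IGF1R Bt.12759.1.A1_at, at 2.26 in oocytes and -0.17 in GC, for IGF1 Bt.12750.1.S1_at, at 0.81 and -0.72, and for IGF2 Bt.29867.1.A1_at, at 0.32 and -0.47. With 1 array for each compartment and stage, none of these differences between compartments was tested.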

How the results depend on the processing

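The counts of IGF probe sets past limma's test stayed at 0 under all alternatives run, and over all 213 recomputed fitted differences of the IGF genes the lowest adjusted p was 0.0926. Over all probe sets, 10 passed between oocytes and GC with an intensity trend in the variance and 0 in the main fit. The sign changed in 8 of the 213, in 6 genes. Without 1 stage the oocyte minus GC difference ranged from -0.45 to 0.043 for IGF1, -1.10 to 0.11 for IGF1R, -0.40 to 0.20 for IGF2R and -1.05 to 0.084 for IGFBP3, each positive without the primordial stage, and from -0.23 to 0.68 for IGFBP6, negative without the secondary stage. It ranged from 0.15 to 0.55 for IGF2, from -0.93 to -0.43 for IGFBP2 and from -0.74 to -0.25 for IGFBP7. The mean of the tested IGF1 probe sets gave 0.007. Quantile normalization gave -0.040 for IGF1, secondary minus primordial, and -0.0033 for IGFBP7, primary minus primordial. The IGF probe sets with all oocyte signals above GC numbered 0 to 2 when a stage was left out, with 2 without the primordial and 1 without the primary stage, of 10, against 17.6 to 21.4% of all probe sets. Those with all oocyte signals below GC numbered 1 to 3, with 3 without the secondary stage, against 16.4 to 22.3%.

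At 1.5-fold, 2 of 14 IGF probe sets were higher on P2 than on P1, against 29.1% of all, and 5 lower on ovine than on bovine P1, against 35.6%. At 3-fold, 1 was higher on P3 than on P1, against 8.93%, and 1 lower on ovine than on bovine P1, against 17.6%. Counting signals of at least 100 as detected left 6 IGF probe sets on LCM arrays, 1 above ovine P3 on all 6, against 20.1%, and 1 of 12 at least 2-fold higher on ovine than on bovine P1, against 19.9%. With the detection limit in place of lower signals, chosen after the data were seen, the log2 ratio of P2 over P1 for IGF1 Bt.12750.1.S1_at turned to 0.29, against -0.24 as measured. The cause of these changes was not tested, beyond the fewer arrays or probe sets left. Signals near the limits, as for IGF1, IGF1R, IGFBP2 and IGFBP6 in follicles, are the least secure, and 1 array for each protocol and species leaves those ratios without an error.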
